A study of Rattus norvegicus with 9 samples.

Results

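The genes followed here were the chains of the fibrillar collagens of types I, III, V and XI (Col1a1, Col1a2, Col3a1, Col5a1, Col5a2, Col11a1 and Col11a2), the fibril-associated chain Col12a1, the collagen chaperone Serpinh1 and the collagen-binding matrix protein Sparc. They were chosen by symbol, and all 10 were found among the 41801 genes listed in the files. The cells came from a circular osteotomy of the proximal tibia in male Sprague-Dawley rats aged 6 to 8 weeks, all of which also carried a full-thickness skin wound on the dorsal foot. In the TO group the osteotomy was left without shock waves, and in the TOE group it received radial shock waves (rESWT) through the skin on days 2 and 4 after injury. Libraries were made with 10x Genomics Chromium 3′ chemistry, in which each captured RNA molecule is counted once through a unique molecular identifier (UMI). The libraries analysed were TO 2d 0h, TO 2d 4h, TO 4d 4h, TO 4d 24h, TOE 2d 4h, TOE 2d 24h, TOE 4d 4h and TOE 4d 24h, named by the day of the session and the hours to collection. TO 2d 24h was not analysed here. The TOE 2d libraries were collected after the day 2 session and before the day 4 session, and the TOE 4d libraries after the day 4 session. Each condition had 1 library, and the number of rats behind a library was not given in the sources used here.

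Fibrillar collagens assemble outside the cell into the cables that carry load in bone, tendon and skin. Type I collagen is the main protein of bone matrix, type III is abundant in early repair tissue and vessel walls, and the minor types V and XI lie within the fibrils and govern how they start and how thick they grow. Type XII lies along the fibril surface, Serpinh1 (HSP47) holds the folded triple helix in the endoplasmic reticulum, and Sparc (osteonectin) binds collagen and mineral in the matrix.

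The 8 libraries held 12451 to 17187 barcodes and 95954800 to 144146202 UMIs, and 110487 cells were kept, of which 57.6% were B-lineage-like. Mesenchymal-like cells numbered 1277, or 1.16% of all. Among them 441 osteoblast-like and 238 fibroblast-like cells were told apart with every collagen, Serpinh1 and Sparc left out of the clustering and of the markers. Levels of some markers from the lists that named the classes are given over the pooled cells of a class. Since these lists set the names, such levels describe the classes and are no check of the names. Bglap (osteocalcin) stood at 36520 UMIs per 1000000 UMIs of the same cells (CPM) in osteoblast-like and 30.0 CPM in fibroblast-like cells, and the dermatopontin gene Dpt at 0.828 and 234 CPM. Dcn, listed as a fibroblast marker, did not separate the classes, at 1199 and 1091 CPM. A further 310 mesenchymal-like cells stayed unnamed, 227 of them from TOE 2d 24h, and TO 4d 24h held no fibroblast-like cell. The libraries shared 40 to 110 cell barcodes per pair, with a median of 57.

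Promoters are shown where the members moved together: the partner chains Col11a2 and Col11a1, both higher in osteoblast-like cells, and Col1a2 and Sparc, which differed between the classes by similar amounts. The sequences are from RefSeq on assembly GRCr8. The set of promoters used here held 7 of the 10 members and lacked Col1a1, Col3a1 and Col12a1. Each line gives the 250 bases before the annotated start, 5′ to 3′ on the strand of the gene, from chr20:4817649-4817898 (minus strand) for Col11a2, chr2:204508886-204509135 (plus) for Col11a1, chr4:33518307-33518556 (plus) for Col1a2 and chr10:40038817-40039066 (minus) for Sparc. Capitals mark every match, on either strand, to the letters GGGCGG, known as the GC box. They also mark CCAAT, known as the CCAAT box, the TATA box letters TATAA, and ACCACA, the letters that Runx factors bind.
Col11a2: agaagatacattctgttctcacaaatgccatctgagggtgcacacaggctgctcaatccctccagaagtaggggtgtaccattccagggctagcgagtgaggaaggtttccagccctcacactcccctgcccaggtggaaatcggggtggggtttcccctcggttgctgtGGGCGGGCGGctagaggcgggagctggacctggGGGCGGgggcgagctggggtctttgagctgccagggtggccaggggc
Col11a1: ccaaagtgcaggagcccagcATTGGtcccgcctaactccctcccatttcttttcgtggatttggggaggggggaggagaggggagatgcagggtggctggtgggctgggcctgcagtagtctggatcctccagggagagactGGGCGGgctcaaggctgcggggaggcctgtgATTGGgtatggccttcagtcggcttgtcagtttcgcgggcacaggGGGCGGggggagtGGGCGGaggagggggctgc
Col1a2: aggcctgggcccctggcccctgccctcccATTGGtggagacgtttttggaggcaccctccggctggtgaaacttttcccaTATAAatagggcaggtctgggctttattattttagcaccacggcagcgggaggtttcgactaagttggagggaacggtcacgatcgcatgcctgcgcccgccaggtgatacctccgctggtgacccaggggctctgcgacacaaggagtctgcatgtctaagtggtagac
Sparc: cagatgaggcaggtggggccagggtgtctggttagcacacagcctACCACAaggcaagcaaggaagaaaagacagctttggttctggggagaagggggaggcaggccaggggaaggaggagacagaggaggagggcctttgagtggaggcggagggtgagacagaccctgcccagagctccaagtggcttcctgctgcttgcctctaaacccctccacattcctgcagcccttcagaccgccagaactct

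Col11a1 and Col11a2 each held 3 GC boxes, and in Col11a2 those at -80 to -75 and at -76 to -71, relative to the start, overlapped. Col11a1 also held 2 CCAAT boxes. Col1a2 held a CCAAT box at -221 and a TATA box at -170, and Sparc a Runx motif at -205. Among the members not printed, Col5a1 and Serpinh1 each held 1 GC box, and Col5a2 held none of the 4 motifs. These letters were common, since 30.5% of all 33469 promoters in the set held a GC box, 34.0% a CCAAT box, 24.0% a TATA box and 14.5% a Runx motif. G and C made up 62.8% of the bases printed for Col11a2, 65.6% for Col11a1, 58.4% for Col1a2 and 60% for Sparc. The median over all promoters was 51.2%, so these shares are not matched for base content.

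Mesenchymal-like cells carried most UMIs of every member. Their share of all UMIs of a gene was 91.6% for Col1a1, 92.9% for Col1a2, 91.8% for Col3a1, 92.5% for Col5a2, 92.7% for Col11a1 and 91.7% for Col12a1, with Col5a1 between Col3a1 and Col5a2. It was lower for Col11a2 (86.9%), Serpinh1 (87.0%) and Sparc (88.0%). TO 2d 4h had the lowest share for 7 members, down to 79.4% for Col1a1 and 73.4% for Sparc, and there 16.3% of Col1a1 UMIs lay in low-UMI erythroid-like cells. Osteoblast-like cells alone held 62.0% of Col1a1 and 81.2% of Col11a2 UMIs, but 10.4% of Col3a1 and 11.5% of Col12a1.

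The members fell into different orders over the cell classes, taken by the median CPM over libraries with at least 10 cells of a class. Col1a1 was highest in osteoblast-like cells, at 61265 to 163793 CPM (median 122328, 8 libraries), and this range lay above that of every other class. Col1a2 (median 60277 CPM), Col11a2 (1199 CPM) and Sparc (33669 CPM) stood apart in osteoblast-like cells in the same way. Col5a2 (3825 CPM) and Col11a1 (4842 CPM) also had their highest medians there, but their ranges met those of chondrocyte-like cells. The range of Col11a1 also met that of fibroblast-like cells, which reached 2549 CPM in TOE 4d 24h. Without TOE 2d 24h these ranges did not meet. Col3a1 had its highest median in fibroblast-like cells (11543 CPM, 5 libraries), followed by chondrocyte-like cells (9196 CPM, 4 libraries) with overlapping ranges. Col5a1 and Col12a1 were highest by median in chondrocyte-like cells, at 2187 and 2325 CPM, and overlapped the fibroblast-like ranges. Serpinh1 was nearly level, from 2209 CPM in fibroblast-like to 1564 CPM in marrow-reticular-like cells, and neighbouring classes overlapped throughout the mesenchymal-like group. Pericyte or smooth-muscle-like cells were the lowest mesenchymal class for Col1a1 (7365 CPM) and for Col11a1 (median 5.43 CPM, with 73.0 CPM in 1 of its 3 libraries), while their Col3a1 (3225 CPM) lay above the osteoblast-like median of 924 CPM.

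**Figure D1:**
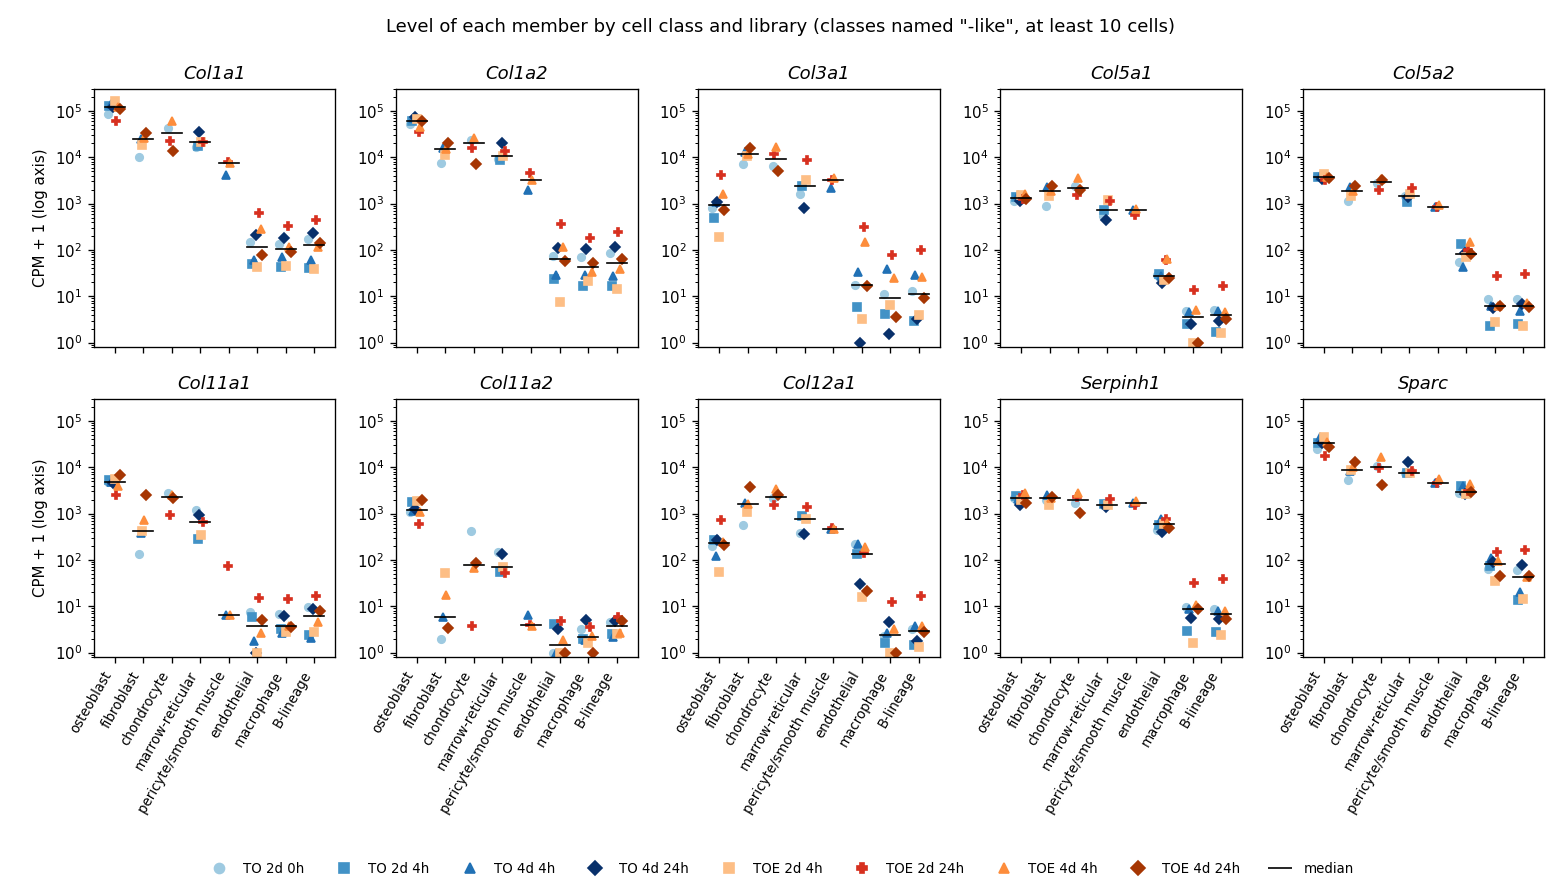
Level of each of the 10 genes by cell class, as CPM + 1 on a log axis; each point is 1 library with at least 10 cells of the class and the bar is the median over libraries. Col1a1, Col1a2, Col11a2 and Sparc stand highest in osteoblast-like cells, Col3a1 and Col12a1 have lower medians there than in fibroblast-like cells, and B-lineage-like and macrophage-like cells stay below the mesenchymal classes except for Col11a1 and Col11a2, where pericyte-like, fibroblast-like or chondrocyte-like points reach down to them.

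Osteoblast-like and fibroblast-like cells differed in which collagens they carried. Col1a1, Col1a2, Col5a2, Col11a1, Col11a2 and Sparc were higher in osteoblast-like cells, Col3a1 and Col12a1 were lower, and Col5a1 and Serpinh1 did not pass the test. The comparison used the 5 libraries with at least 10 cells of both classes (TO 2d 0h, TO 4d 4h, TOE 2d 4h, TOE 4d 4h and TOE 4d 24h), with UMIs summed per library and class and edgeR's quasi-likelihood test with library as a block. P-values were adjusted by Benjamini-Hochberg over all 10647 genes tested. They describe how alike the difference was over libraries of different day, hour and treatment, since no condition had a replicate. Among all genes tested, 8.42% were called higher and 8.83% lower in osteoblast-like cells, against 6 and 2 of the 10 members. The CPM of the classes did not overlap over these 5 libraries for 8 of the 10 members, against 15.8% of all genes. The members were chosen with earlier results of these data known, so these shares are a description.

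Both type XI chains were higher in osteoblast-like cells. Col11a2, which pairs with Col11a1 in type XI collagen, stood at 1066 CPM in osteoblast-like cells of TO 2d 0h, 1161 in TO 4d 4h, 1915 in TOE 2d 4h, 1059 in TOE 4d 4h and 1947 in TOE 4d 24h. Fibroblast-like cells of the same libraries held it at 1.00, 4.97, 52.0, 16.2 and 2.33 CPM. Every osteoblast-like value lay above every fibroblast-like one, and those of TO 2d 0h and TOE 4d 24h rested on 1 fibroblast-like UMI each. The log2 ratio was 7.58 (SE 0.60, 5 libraries), or 191-fold, with an adjusted p of 3.69e-05 by edgeR's quasi-likelihood test. The fibroblast-like level was above the B-lineage-like level of the same library in 3 of 5 libraries, with a median ratio of 4.20, against 559 for osteoblast-like cells over 8 libraries. The few fibroblast-like cells of TO 2d 4h and TOE 2d 24h, 6 in each and outside the test, had more Col11a2, at 240 and 165 CPM.

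Col11a1 stood at 4915, 4770, 5717, 3888 and 6878 CPM in osteoblast-like cells of TO 2d 0h, TO 4d 4h, TOE 2d 4h, TOE 4d 4h and TOE 4d 24h, and at 131, 387, 431, 718 and 2549 CPM in fibroblast-like cells. The classes did not overlap, but the within-library log2 ratio had its lowest value, 1.43, in TOE 4d 24h and its highest, 5.22, in TO 2d 0h. Its fitted log2 ratio was 3.73 (SE 0.50, 13.2-fold, edgeR adjusted p = 0.000806). TOE 4d 24h was the only one of the 5 libraries whose fibroblast-like cells all came from the sub-cluster led by Eln, Igf2 and Ostn, which carried more Col11a1 (1918 CPM) than the large sub-cluster led by Zfpm2 and Il33 (315 CPM).

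Type I chains moved together. Col1a1, which encodes the α1 chain, stood at 87532 CPM in osteoblast-like cells of TO 2d 0h, 141150 in TO 4d 4h, 163793 in TOE 2d 4h, 120211 in TOE 4d 4h and 111832 in TOE 4d 24h, against 10304, 24311, 18772, 26495 and 33601 CPM in fibroblast-like cells. The lowest osteoblast-like library was thus above the highest fibroblast-like one. The log2 ratio was 2.98 (SE 0.26, 7.88-fold, edgeR adjusted p = 6.12e-05). For Col1a2, the α2 chain, osteoblast-like values ran from 45814 to 68686 CPM in these 5 libraries and fibroblast-like values from 7542 to 20148 CPM, with a log2 ratio of 2.57 (SE 0.24, 5.92-fold, edgeR adjusted p = 9.82e-05).

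Type III and type XII went the other way. Col3a1 stood at 784, 1065, 190, 1634 and 740 CPM in osteoblast-like cells of TO 2d 0h, TO 4d 4h, TOE 2d 4h, TOE 4d 4h and TOE 4d 24h, and at 7279, 12725, 10830, 11543 and 15511 CPM in fibroblast-like cells. Fibroblast-like cells were higher in 5 of 5 libraries without overlap, and the log2 ratio was -3.49 (SE 0.37, 11.2-fold lower in osteoblast-like cells, edgeR adjusted p = 0.000181). Col12a1, which bridges fibrils and neighbouring matrix, stood at 199, 119, 54.8, 248 and 205 CPM in osteoblast-like and at 564, 1659, 1088, 1629 and 3680 CPM in fibroblast-like cells. The osteoblast-like values again lay below all fibroblast-like values, with a log2 ratio of -2.85 (SE 0.39, 7.22-fold lower, edgeR adjusted p = 0.000806).

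The type V chains parted. Col5a2 was higher in osteoblast-like cells, at 3593 to 4335 CPM against 1120 to 2381 CPM, with no overlap and a log2 ratio of 1.60 (SE 0.23, 3.03-fold, edgeR adjusted p = 0.00128). Col5a1, its partner in the commonest type V trimer, stood at 1158 to 1640 CPM in osteoblast-like and 904 to 2418 CPM in fibroblast-like cells, and the ranges overlapped. By CPM, which is scaled to total UMIs, it was higher in osteoblast-like cells in 2 of 5 libraries, with a median log2 ratio of -0.16. The fit, with TMM scaling, gave a log2 ratio of 0.20 (SE 0.23, edgeR adjusted p = 0.59). With total UMIs in place of TMM scaling the sign of Col5a1 turned, to -0.25 (adjusted p = 0.391).

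Sparc and Serpinh1 did not follow one another. Sparc stood at 25109 to 45350 CPM in osteoblast-like and 5239 to 12823 CPM in fibroblast-like cells, without overlap, and its log2 ratio was 2.46 (SE 0.24, 5.50-fold, edgeR adjusted p = 0.000122). Serpinh1 stood at 1689 to 2789 CPM and 1496 to 2466 CPM. By CPM it was higher in osteoblast-like cells in 3 of 5 libraries, with a median log2 ratio of 0.16. In the fit with TMM scaling Serpinh1 had a log2 ratio of 0.49 (SE 0.20, edgeR adjusted p = 0.13). It passed the threshold with Bglap-rich cells set against cells without a Bglap UMI (log2 ratio 0.61, adjusted p = 0.0101, in 6 libraries, with TO 2d 4h and TOE 2d 24h added and TOE 4d 24h left out) and, in an alternative added after the data were seen, with the unnamed cells placed with the fibroblast-like ones (0.46, adjusted p = 0.0155, in 7 libraries). The part of the changed libraries in these calls was not tested.

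**Figure D2:**
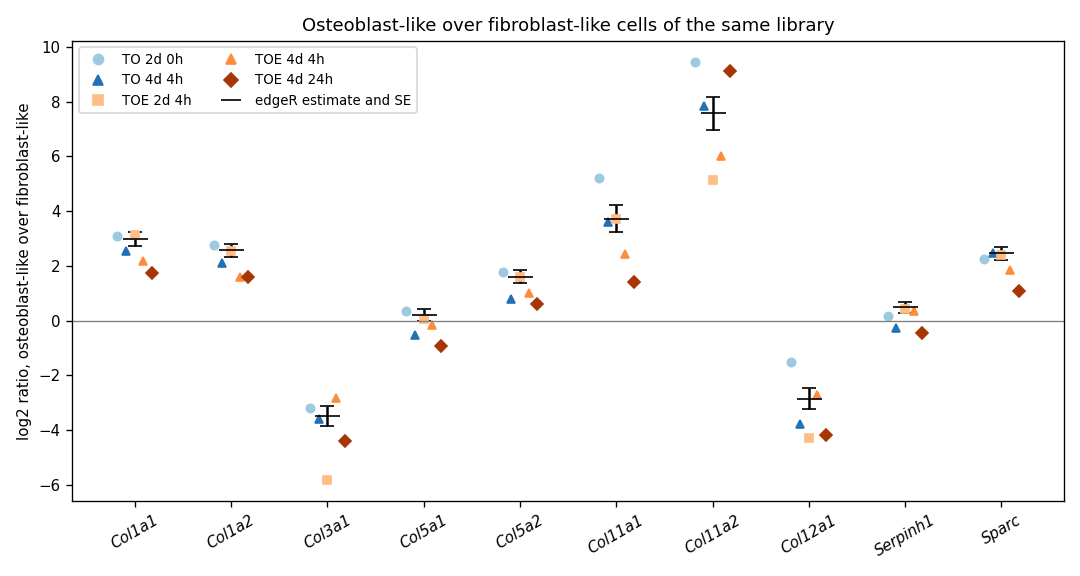
Log2 ratio of CPM in osteoblast-like over fibroblast-like cells of the same library, for 5 libraries (points, scaled to total UMIs), with the edgeR estimate (bar, TMM scaling) and its SE. Points of Col1a1, Col1a2, Col5a2, Col11a1, Col11a2 and Sparc are all above 0, those of Col3a1 and Col12a1 all below, and those of Col5a1 and Serpinh1 lie on both sides.

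These directions were read against the scaling and the purity of the classes. The median log2 ratio of all genes tested was -0.022 with TMM and -0.453 with total UMIs, and the calls split into 897 higher and 940 lower with TMM but 543 higher and 2519 lower with total UMIs. The 8 members called stayed called in the same direction in all 16 alternative fits. The size of the log2 ratios depended on the scaling. With total UMIs they were at their lowest for Col1a1 (2.53), Col1a2 (2.11), Col5a2 (1.15) and Sparc (2.01). Col12a1 was then furthest from 0, at -3.30. Fibroblast-like and osteoblast-like sums also held UMIs of markers of other cells, and the direction differed between the lists. The 6 monocyte markers summed to 386 to 1425 CPM in fibroblast-like against 85.7 to 178 CPM in osteoblast-like cells, 4 of them higher, and the 8 neutrophil markers to 1946 to 8302 against 1098 to 2520 CPM, all 8 higher. B-cell markers summed to 838 to 1414 against 640 to 978 CPM with 2 of 6 higher, and none of the monocyte or B-cell markers was at 0 in either class, while Ltf was the only neutrophil marker at 0, in osteoblast-like cells. The 7 endothelial markers summed to 27.9 to 38.2 CPM in fibroblast-like against 7.198 to 19.3 CPM in osteoblast-like cells, with 5 higher and none at 0. Medians were also higher in fibroblast-like cells for the macrophage (31.05 against 5.60 CPM) and the stem and progenitor list (64.0 against 29.1 CPM). In each of these 2 lists 4 of 6 markers were higher, and the ranges overlapped. The medians of the erythroid (846 against 761 CPM), mast-cell or basophil (25.7 against 15.1 CPM) and granulocyte-monocyte progenitor lists (64.3 against 55.6 CPM) were higher in osteoblast-like cells, and these ranges overlapped. The part of these UMIs in the differences was not tested beyond the fit with B-lineage levels subtracted, in which all 8 members stayed called.

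The ratio of chains within a cell class, taken from UMIs and used here only to compare classes, gave the same picture without any scaling between cells. Col11a2 over Col11a1 was 0.217 to 0.336 in osteoblast-like cells of 8 libraries and 0.000913 to 0.121 in fibroblast-like cells of 5. Col5a1 over Col5a2 was 0.300 to 0.428 in osteoblast-like and 0.807 to 1.02 in fibroblast-like cells. Neither pair of ranges overlapped. Col3a1 over Col1a1, the balance of type III to type I, was 0.00116 to 0.0686 in osteoblast-like and 0.436 to 0.707 in fibroblast-like cells, also without overlap. Col11a1 over Col5a1 ran from 2.02 to 5.43 and from 0.145 to 1.05. Col1a1 over Col1a2 overlapped, at 1.70 to 2.62 against 1.37 to 1.74. In marrow-reticular-like cells, which supply Cxcl12 to the marrow, Col11a2 over Col11a1 was 0.0763 to 0.200, overlapping the fibroblast-like range, and type III to type I was 0.0232 to 0.406.

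**Figure D3:**
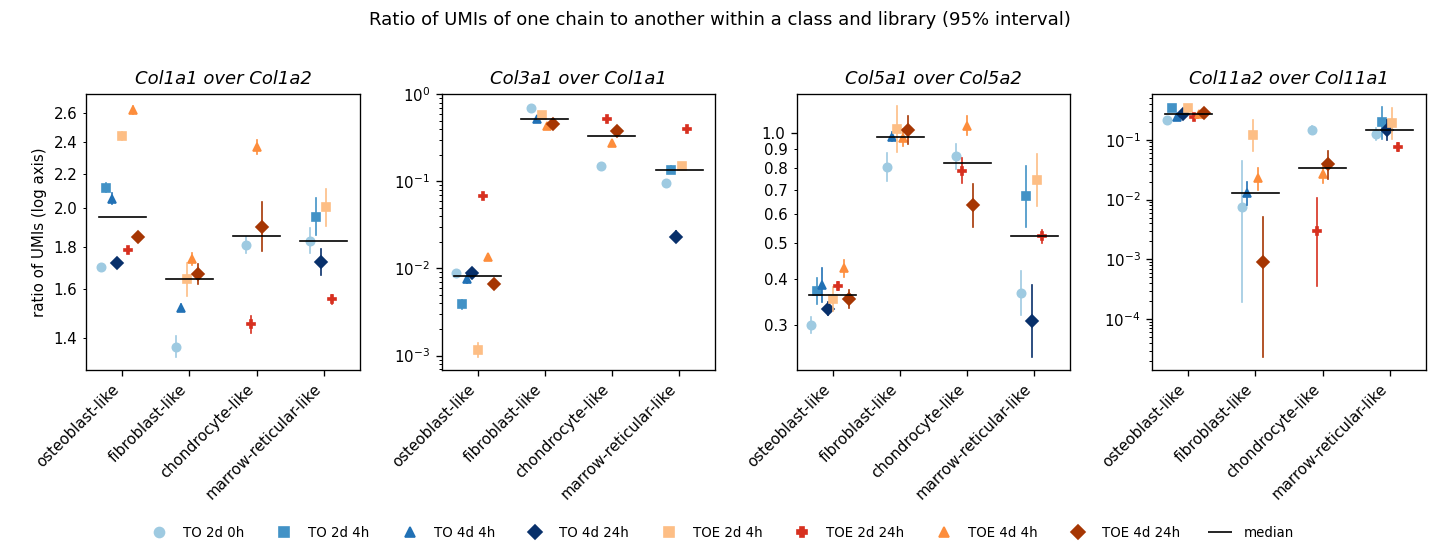
Ratio of UMIs of one collagen chain to another within a cell class and library, on log axes, with 95% counting intervals and the median as a bar. Col5a1 over Col5a2 and Col3a1 over Col1a1 are lower in osteoblast-like than in fibroblast-like cells in every library plotted, and Col11a2 over Col11a1 is higher, whereas Col1a1 over Col1a2 overlaps.

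Osteoblast-like cells were not uniform in their collagens. The sub-cluster led by Bglap, with Ifitm5 among its 10 leading genes (172 cells), carried Col1a1 at 119620, Col11a2 at 1377, Col3a1 at 539 and Col12a1 at 136 CPM. The sub-cluster led by Dmp1, Phex and Mepe (46 cells), genes of osteocytes and late osteoblasts, had more Col1a1 (138841 CPM) and Col11a2 (1746 CPM) and less Col12a1 (73.4 CPM). The sub-cluster with Ibsp, Alpl and Tcf7 among its 10 leading genes (63 cells) differed from both, with Col1a1 at 32146, Col11a1 at 1378, Col11a2 at 69.7, Col3a1 at 6224 and Col12a1 at 1068 CPM. Its type III and type XII levels were nearer those of fibroblast-like cells, although Ibsp and Alpl are genes of the bone lineage. Serpinh1 varied little over these groups, from 1646 CPM in the Dmp1 sub-cluster to 2590 CPM in the Ibsp sub-cluster. A further 86 cells, with the mast-cell protease genes Mcpt1l1 and Cma1 among their 10 leading genes, and 74 cells led by tRNA genes had none of the osteoblast markers among those 10. The sub-cluster of 86 cells supplied 13 of the 15 osteoblast-like cells of TO 4d 4h. With both sub-clusters left out, an alternative added after the data were seen, TO 4d 4h was no longer in the comparison with fibroblast-like cells, and the 8 members stayed called in the other 4 libraries. The 86 cells carried Col1a1 at 123745, Col11a2 at 1292, Col3a1 at 885 and Col12a1 at 197 CPM, and the 74 cells had 57826, 1030, 3599 and 764 CPM. No test was made between sub-clusters.

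TOE 2d 24h stood apart from the other libraries. Its matched library without shock waves, TO 2d 24h, was not analysed, so treatment, day and hour cannot be told apart for it. Of its 145 osteoblast-like cells, 51 belonged to the Ibsp sub-cluster and 40 to the Bglap sub-cluster, whereas the other 7 libraries held 0 to 5 Ibsp sub-cluster cells each. Over all its osteoblast-like cells Col1a1 (61265 CPM), Col1a2 (34396 CPM), Col11a1 (2484 CPM), Col11a2 (591 CPM) and Sparc (17386 CPM) were the lowest of the 8 libraries, and Col3a1 (4203 CPM) and Col12a1 (724 CPM) the highest. Within that library the Bglap sub-cluster had Col1a1 at 108926, Col11a2 at 1380, Col3a1 at 471 and Col12a1 at 105 CPM, and the Ibsp sub-cluster had 29785, 50.3, 6707 and 1124 CPM. In the 4 other libraries with at least 10 cells of the Bglap sub-cluster, Col12a1 stood at 113 to 174 CPM in them, above the value in TOE 2d 24h. The sub-cluster with Mcpt1l1 and Cma1 had Col1a1 at 78939, Col3a1 at 1985 and Col11a2 at 473 CPM in TOE 2d 24h, against 129287 to 147449, 362 to 878 and 1121 to 1920 CPM in 4 other libraries. The sub-cluster led by tRNA genes had Col1a1 at 32123 and Col3a1 at 5385 CPM there and at 92101 and 1187 CPM in TOE 4d 24h. The part of the sub-cluster makeup in the values of TOE 2d 24h was not tested. TOE 2d 24h was outside the test of osteoblast-like against fibroblast-like cells, as it had 6 fibroblast-like cells. Its osteoblast-like Col11a1 lay below the fibroblast-like value of TOE 4d 24h (2549 CPM). Its osteoblast-like Col12a1 lay above the fibroblast-like value of TO 2d 0h (564 CPM). Leaving it out moved the osteoblast-like median of Col1a1 from 122328 to 124446 CPM and that of Col3a1 from 924 to 784 CPM.

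Fibroblast-like cells also held unlike groups. The large sub-cluster led by Zfpm2, Il33 and Col14a1 (158 cells, 110 of them from TO 4d 4h) had Col3a1 at 11165 and Col12a1 at 1378 CPM and 5 Col11a2 UMIs in all (0.823 CPM). The sub-cluster led by Eln, Igf2 and Ostn (49 cells) had Col1a1 at 33844, Col12a1 at 3252 and Col11a1 at 1918 CPM. A small sub-cluster led by the complement genes C4b and C4a (19 cells) had the most Col3a1, at 22502 CPM. The sub-cluster led by the tendon and joint genes Kera, Tnmd and Thbs4 (12 cells) held 92 of the 100 fibroblast-like Col11a2 UMIs (370 CPM), together with Sparc at 15058 CPM. These 12 cells were spread over 6 libraries. Of these 4 sub-clusters, the one led by Zfpm2 had a fibroblast marker (Dpt) among its 10 leading genes and the other 3 had none.

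Genes that modify, export, trim and cross-link collagen were read together with 21 other collagens from a list of 60, of which 53 passed the count filter. Over this whole list 20 were higher in osteoblast-like cells, 18 lower and 15 not called, against the 8.42% and 8.83% of all genes given above. The median log2 ratio of the whole list was 0.24 against -0.022 for all genes. The other collagens made up 12 of the 18 lower, 3 of the 20 higher and 1 of the 15 not called. These genes, other than the collagens, could enter the clustering, so their counts are a description. Among those described next, Creb3l1, Mia3, Plod2, Bmp1, Loxl1, Col5a3 and the type VI chains were picked after their values were seen. Of 7 secretion genes 5 were higher, none lower and 2 not called, among them Creb3l1 (log2 ratio 1.42, edgeR adjusted p = 0.00191), the factor that drives secretory capacity in osteoblasts, and Mia3 (1.01, adjusted p = 0.0123), whose product loads collagen into export carriers. Of 11 hydroxylase genes 4 were higher, 2 lower and 5 not called. Plod2, which hydroxylates lysines in the collagen ends that are cross-linked, was higher (1.79, adjusted p = 0.00562), and P4ha3 was the lowest, at 0 to 5.93 CPM in osteoblast-like and 78.0 to 141 CPM in fibroblast-like cells (-5.55, adjusted p = 0.000115).

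Chaperone genes split into 3 higher, 1 lower and 4 not called, with Ppib, the collagen prolyl isomerase, not called at 0.16 (SE 0.17). Propeptide genes split into 4 higher and 2 lower of 6. The procollagen proteinase Bmp1 was higher (2.13, edgeR adjusted p = 0.0018), while its relative Tll1 was lower (-5.52, adjusted p = 0.000441), at 0 to 3.22 CPM in osteoblast-like and 16.0 to 163 CPM in fibroblast-like cells. Cross-linking genes split into 1 higher, 1 lower and 3 not called. Loxl4 was higher (2.50, adjusted p = 0.000885), Loxl1, which acts on elastin, was lower (-2.84, adjusted p = 9.47e-05), and Lox was not called (0.36, SE 0.23).

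The other collagens mostly went with type III. Of 16 tested, 12 were lower in osteoblast-like cells, 3 higher and 1 not called, with a median log2 ratio of -2.97. The 3 higher were Col22a1 (5.08, SE 0.93, edgeR adjusted p = 0.00439), Col13a1 (4.09, SE 0.94, adjusted p = 0.0135) and the fibrillar chain Col24a1 (3.95, SE 0.30, adjusted p = 3.08e-05). Col24a1 stood at 194 to 504 CPM in osteoblast-like and 19.4 to 46.6 CPM in fibroblast-like cells. Among those lower were Col14a1, a relative of Col12a1 (-5.68, SE 0.76, adjusted p = 0.000773), Col8a1 (-5.45, SE 1.14, adjusted p = 0.00879), the third type V chain Col5a3 (-4.50, SE 0.68, adjusted p = 0.00146) and all 3 type VI chains tested. Col5a3 stood at 135 to 986 CPM in fibroblast-like and 0 to 39.0 CPM in osteoblast-like cells.

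Endothelial-like cells, which line vessels, carried some members and not others. Sparc stood at 2695 to 4421 CPM in the 8 libraries (median 2993) and Serpinh1 at 390 to 776 CPM (median 593). Over the B-lineage-like level of the same library the median ratio was 87.3 for Sparc, 99.6 for Serpinh1, 56.0 for Col12a1, 15.7 for Col5a2 and 10.0 for Col5a1, and all 5 were above it in 8 of 8 libraries. Col1a1 and Col1a2 in endothelial-like cells had median ratios of 1.05 and 1.01, with ranges of 0.540 to 2.53 and 0.487 to 2.97. Both were highest in TOE 4d 4h, and they were above the B-lineage-like level in 5 and 4 of 8 libraries. The median ratios of Col11a1 and Col11a2 were 0.645 and 0.249, and each was above that level in 1 of 8. Endothelial-like Col3a1 had a median ratio of 1.68 and was above in 6 of 8. In macrophage-like cells the median ratios of the collagen chains were 0.600 to 0.927, with 1.10 for Serpinh1 and 1.71 for Sparc, which was above the B-lineage-like level in 7 of 8 libraries.

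Blood cells were taken to give the level of free RNA, which enters droplets whatever cell they hold. The 10 members together reached 359 CPM in B-lineage-like cells of TO 2d 0h, 77.0 CPM at TO 2d 4h, 153 CPM at TO 4d 4h and 451 CPM at TO 4d 24h. With shock waves they reached 75.3 CPM at TOE 2d 4h, 1058 CPM at TOE 2d 24h, 241 CPM at TOE 4d 4h and 281 CPM at TOE 4d 24h. TOE 2d 24h, which also had the most mesenchymal-like cells (498), was thus far above the rest, and its matched TO 2d 24h was not analysed. Neutrophil-like cells (106 to 912 CPM) and monocyte-like cells (68.0 to 748 CPM) had like levels, with the same libraries lowest and highest. Mesenchymal-like cells exceeded the B-lineage-like level by 67.4 times in TOE 2d 24h up to 2126 times, with a median of 491. Sparc made 31.4 to 36.5% of the Col1a1 UMIs in B-lineage-like cells and 25.9 to 34.7% in mesenchymal-like cells, and Col3a1 0.998 to 47.4% against 1.00 to 36.1%. Col11a2 was less alike, at 1.13 to 4.02% against 0.255 to 1.55%, and 1.87% against 0.802% over the pooled cells. The source of this difference was not tested. In endothelial-like cells Sparc was 489 to 8057% of Col1a1.

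Shares of cells with a UMI followed the levels. After each cell was thinned to 2000 UMIs, Col11a2 was found in 65.2% of osteoblast-like, 2.42% of fibroblast-like and 0.612% of B-lineage-like cells. Unthinned shares were 82.5%, 7.56% and 1.68%, at median depths of 27467, 30780 and 4350 UMIs. Col12a1 was found in 32.3% of osteoblast-like and 84.8% of fibroblast-like cells after thinning (67.6% and 99.6% before). Col3a1 was found in 51.3% of osteoblast-like and 99.7% of fibroblast-like cells (79.1% and 100% before). Col1a1 was found in 24.9% of thinned B-lineage-like cells (46.2% before), which is the background share for a gene of this abundance. Thinning left out 1 osteoblast-like, 1 fibroblast-like and 6073 B-lineage-like cells.

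**Figure D4:**
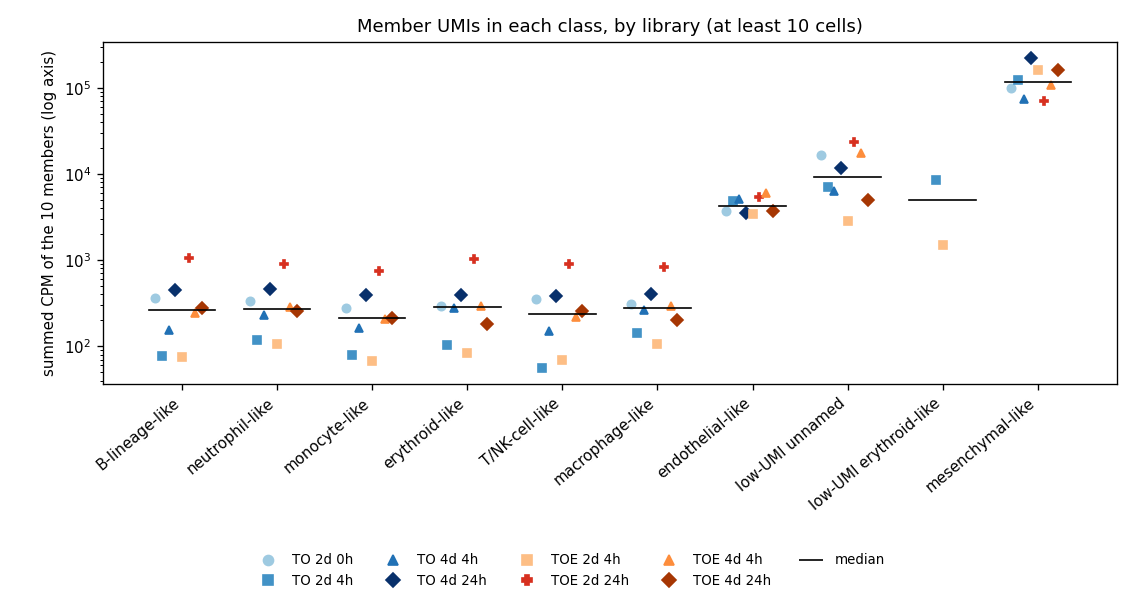
Summed CPM of the 10 genes by cell class and library, on a log axis, with the median as a bar. The blood classes shown, from which mast-cell or basophil-like cells (122 to 1124 CPM) are left out, lie between 55.2 and 1058 CPM with TOE 2d 24h highest in each, endothelial-like cells and the low-UMI groups lie above them, and mesenchymal-like cells are highest.

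Shock waves were compared with none at the matched times 2d 4h, 4d 4h and 4d 24h. With 1 library per condition there was no test within a pair, and the intervals given are 95% intervals for counting error only. In osteoblast-like cells the type I chains, Sparc, Serpinh1, and the type V and XI chains stayed within 2-fold in all 3 pairs. Col3a1 and Col12a1 passed 2-fold at 2d 4h, and Col12a1 at 4d 4h in the opposite direction. The share of all genes past 2-fold, among those with at least 50 UMIs over the pair, was 7.23%, 12.4% and 10.0% for the 3 pairs in order of time, against 2, 1 and 0 of the 10 members.

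Col12a1 in osteoblast-like cells stood at 263 CPM (222 to 309) in TO 2d 4h and 54.8 CPM (37.5 to 77.4) in TOE 2d 4h, from 149 and 32 UMIs. At 4d 4h it stood at 119 CPM (83.8 to 164) in TO and 248 CPM (221 to 278) in TOE, and at 4d 24h at 272 CPM (253 to 292) and 205 CPM (180 to 231). TOE over TO thus came to 0.211 (0.138 to 0.307) in the earliest pair, 2.06 (1.48 to 3.02) in the next and 0.755 (0.652 to 0.870) in the last, on both sides of 1. Col3a1 stood at 498 CPM in TO 2d 4h and 190 CPM in TOE 2d 4h (ratio 0.383, 0.304 to 0.478). Its ratio in the 4d 4h pair was 1.53 (1.37 to 1.73), and in the 4d 24h pair it was 0.676 (0.628 to 0.728). With Bglap-rich cells in place of the clusters, the log2 ratios at 2d 4h turned from -1.38 to 4.90 for Col3a1 and from -2.24 to 0.06 for Col12a1. Sub-clusters were not evenly shared between the arms. In the sub-cluster with Mcpt1l1 and Cma1, the one with at least 10 cells in both arms at 2d 4h, Col3a1 stood at 366 CPM in TO and 362 CPM in TOE, and Col12a1 at 241 and 13.8 CPM, the latter from 3 UMIs. At 4d 4h the same sub-cluster had Col3a1 at 829 and 878 CPM and Col12a1 at 106 and 199 CPM.

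Col1a1 in osteoblast-like cells without and with shock waves stood at 127117 and 163793 CPM at 2d 4h, at 141150 and 120211 CPM at 4d 4h, and at 124446 and 111832 CPM at 4d 24h. The ratios, 1.29, 0.852 and 0.899, lay on both sides of 1. Sparc went the same way, at 1.35, 0.785 and 0.802. The type XI chains were nearest to 2-fold at 4d 24h, where Col11a1 stood at 4675 CPM in TO and 6878 CPM in TOE (ratio 1.47, 1.43 to 1.51) and Col11a2 at 1237 and 1947 CPM (1.57, 1.49 to 1.66). The osteoblast-like cells of that pair were 71 of the Bglap and 4 of the tRNA-led sub-cluster of 85 in TO, and 10 and 34 of 46 in TOE. Within the Bglap sub-cluster Col11a1 stood at 4783 CPM in TO and 7321 CPM in TOE, Col11a2 at 1303 and 1865 CPM, and Sparc at 35157 and 35920 CPM. The part of the sub-cluster makeup in the TOE over TO values was not tested further.

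In a fit added after the data were seen, the 3 pairs were tested together in osteoblast-like cells, with edgeR's quasi-likelihood test and the matched time as a block. It takes pairs of different times, and with different numbers of shock wave sessions in TOE, as replicates of the treatment, with 2 residual degrees of freedom. None of the 8099 genes tested passed an adjusted p of 0.05 (0.00%). An unadjusted p under 0.05 was found for 325, a smaller share of the genes than 0.05. The member estimates ran from -0.56 (SE 0.42) for Col12a1 and -0.49 (SE 0.34) for Col3a1 to 0.15 (SE 0.31) for Col11a2, each with an edgeR adjusted p of 1. Without the 2d 4h pair 21 genes passed, none of them a member, and the Col12a1 estimate was 0.11. Over all mesenchymal-like cells none of 12106 genes passed (0.00%), and 384, again a smaller share than 0.05, had an unadjusted p under 0.05. The member furthest from 0 there was Col11a2 at 0.71 (SE 0.42, edgeR adjusted p = 1).

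Fibroblast-like cells could be compared only at 4d 4h, with 125 cells in TO and 51 in TOE. None of the 9 members with at least 50 UMIs passed 2-fold, against 6.89% of all genes. Col1a1 stood at 24311 and 26495 CPM (ratio 1.09, 1.08 to 1.10), Col3a1 at 12725 and 11543 CPM (0.907, 0.891 to 0.923) and Col11a1 at 387 and 718 CPM (1.85, 1.71 to 2.00). Col11a2 had a ratio of 3.26 (1.74 to 6.14) from 22 and 23 UMIs. The Zfpm2 sub-cluster gave 110 of the TO and 25 of the TOE cells, and the Eln sub-cluster 1 and 20. Within the Zfpm2 sub-cluster the direction of Col11a1 turned, to 382 CPM in TO and 248 CPM in TOE, Col3a1 stood at 11882 and 12042 CPM, and Col11a2 had 4 and 0 UMIs. The sub-cluster led by Kera, Tnmd and Thbs4, which held most fibroblast-like Col11a2 UMIs, had 1 cell in TO and 5 in TOE at this time.

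**Figure D5:**
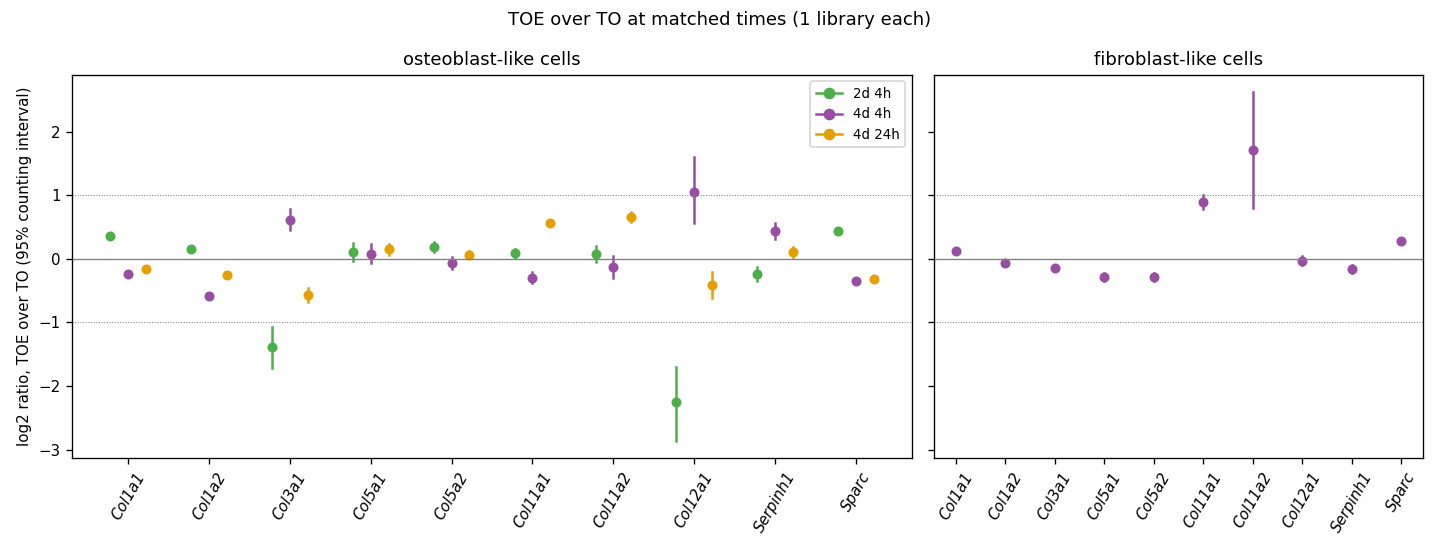
Log2 ratio of CPM, TOE over TO, at matched times in osteoblast-like cells (3 pairs) and fibroblast-like cells (4d 4h only), with 95% counting intervals and dotted lines at 2-fold. Most points lie between the dotted lines, Col3a1 and Col12a1 at 2d 4h lie below them in osteoblast-like cells, and Col12a1 at 4d 4h and fibroblast-like Col11a2, from 22 and 23 UMIs, lie above.

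The pairs were also compared over the whole mesenchymal-like class, an alternative added after the data were seen. Among all genes with at least 50 UMIs over the pair, 414 of 6908 passed 2-fold in the 2d 4h pair, with 1 of the 10 members, Col12a1, which was lower in TOE (ratio 0.472). In the same way 852 of 11052 passed 2-fold in the 4d 4h pair, and the 4d 24h pair had 1032 of 7954, against 2 of the 10 members each time. At 4d 4h Col11a1 (ratio 2.76) and Col11a2 (3.77) were higher in TOE. The mesenchymal-like cells of TO 4d 4h were 15 osteoblast-like and 125 fibroblast-like of 177, and those of TOE 4d 4h 47 and 51 of 181. At 4d 24h Col3a1 (ratio 4.00) and Col12a1 (4.09) were higher in TOE, and the cells were 85 osteoblast-like and 0 fibroblast-like of 100 in TO and 46 and 17 of 78 in TOE. Within osteoblast-like cells of the same pair, Col3a1 and Col12a1 had ratios of 0.676 and 0.755, below 1. The part of the changed cell makeup in these values was not tested further.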

How the data were processed

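Counts of UMIs per gene and barcode were used as deposited. Per the file headers the authors made these counts with Cell Ranger 9.0.0, and the submitters' processing notes also name Seurat, R 4.0.3 and the builds mRatBN7.2 and GRCh38. Cells with at least 200 genes, at most 20% mitochondrial UMIs and a doublet score up to 0.25 were kept, which removed 2.27 to 4.24% as doublets. Cells were clustered with scanpy 1.11.5 and leidenalg 0.10.2 (2000 variable genes, 30 components, 15 neighbours, resolution 1), and mesenchymal-like cells were clustered again on 1000 genes and 15 components. Classes were named from marker lists.

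UMIs were summed per library and class. Osteoblast-like and fibroblast-like sums were compared with edgeR 4.0.16 (R 4.3.3, filterByExpr, TMM, quasi-likelihood test, library as block, Benjamini-Hochberg adjustment, threshold 0.05). TOE over TO ratios had 1 library per condition and no test within a pair, and their log2 values carry a prior of 0.5 UMI. Intervals are exact 95% Poisson or conditional binomial intervals and cover counting error only. On simulated data with 10647 genes the comparison of osteoblast-like with fibroblast-like cells recovered 73 of 97 genes changed 4-fold and 19 of 91 changed 2-fold. An edgeR fit with the matched time as a block, added after the data were seen, tested the 3 pairs together. On simulated data it recovered 89 of 98 genes changed 4-fold among 7683 genes in osteoblast-like cells and 21 of 93 changed 2-fold, and in mesenchymal-like cells 76 of 99 and 8 of 97 among 11309 genes. By rule the text names the members, the 4 pathway genes called with the largest log2 ratio in each direction, the 2 not called with the most UMIs, and the 5 genes most like each of 4 members. The members, lists and markers were chosen with earlier results of these data known. Alternatives covered the scaling, count filter, DESeq2 1.42.0, the block, cell classes, clustering, cell filter, free RNA and leaving out each library.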

Additional observations from a re-analysis of the deposited data

Results flagged for a closer look

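Col12a1, the type XII chain, moved in opposite directions between TOE and TO at different times. In osteoblast-like cells its log2 ratio was -2.24 for the 2d 4h pair, 1.04 for the 4d 4h pair and -0.41 for the 4d 24h pair. With Bglap-rich cells in place of the clusters, the value of the earliest pair was 0.06. Over all mesenchymal-like cells it was -1.08 for the earliest pair, -0.005 for the next and 2.03 for the 4d 24h pair, in which TO held 0 fibroblast-like cells. The difference between the times was not tested, as each condition had 1 library.

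Col1a1 UMIs also appeared in cell groups that no comparison used. The 3967 low-UMI unnamed cells, with a median of 792 UMIs, held Col1a1 at 6810 CPM over all libraries, from 1328 CPM in TOE 2d 4h up to 10806 CPM in TOE 2d 24h. The B-lineage-like cells of those libraries held 38.6 and 444 CPM. In TO 2d 4h the 1990 low-UMI erythroid-like cells held Col1a1 at 4604 CPM from 18709 UMIs, and Col3a1 at 4.92 CPM from 20 UMIs. The source of these UMIs was not tested.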

How the results depend on the processing

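The 8 members called between osteoblast-like and fibroblast-like cells kept their call and direction in all 16 alternative fits. Col5a1 turned from 0.20 to -0.25 with total UMIs. The number of genes called, 1837, became 3062 with total UMIs and 807 of 4469 tested with free RNA subtracted, which moved the median log2 ratio of all genes to -0.84. In alternatives added after the data were seen it became 2790 with unnamed cells placed with the fibroblast-like ones, in 7 libraries instead of 5, and 835 with only the osteoblast-like sub-clusters that had an own marker among their leading genes, in 4 libraries. Leaving out 1 library at a time gave 1123 to 2062, the lowest without TOE 4d 4h. Among the members Col11a1 came to 3.05 without the library block and Col11a2 to 8.36 with free RNA subtracted. Other definitions of the classes also changed which libraries had at least 10 cells of both. Col12a1 came to -1.88 with collagens among the variable genes (4 libraries), Col11a1 to 4.54 at resolution 0.5 (3 libraries) and Col11a2 to 5.93 with Bglap-rich cells (6 libraries), each without TOE 4d 24h. The part of the changed libraries was not tested.

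For TOE over TO at 2d 4h, Bglap-rich cells turned Col3a1 to 4.90 and Col12a1 to 0.06. Over all members, pairs and alternatives, a further 55 of 150 log2 ratios in osteoblast-like cells, 14 of 50 in fibroblast-like and 25 of 120 in mesenchymal-like cells moved beyond the counting interval. With at least 20 UMIs in place of 50, genes past 2-fold became 728, 1273 and 1459 in osteoblast-like cells (2d 4h, 4d 4h, 4d 24h), 1233 in fibroblast-like cells, and 922, 1403 and 1963 in mesenchymal-like cells. The cause of these shifts was not tested. No pairing by replicate number was made, since each condition had 1 library. In the added fit of TOE over TO with the matched time as a block, the 0 genes called in osteoblast-like cells became 1 with total UMIs and 0 to 21 without 1 of the pairs, the highest without 2d 4h. There the Col12a1 estimate ranged from -1.23 to 0.11, that of Col3a1 from -0.95 to -0.14 and that of Col11a2 from -0.026 to 0.38. In mesenchymal-like cells the count was 0 in each of these settings. Without 1 of the pairs their Col11a2 estimate ranged from 0.14 to 1.17 and that of Col3a1 from -0.084 to 0.92. Without 4d 4h, Col3a1 and not Col11a2 was the member furthest from 0. Small classes, down to 14 fibroblast-like and 15 osteoblast-like cells per library in the test, limit the precision.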

Other observations

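The genes whose levels followed the members most closely were sought over 103 sums of a cell class in a library, by Pearson's r of log2(CPM + 1) among 16307 genes. The sums share libraries and free RNA, so the values are a description. Col1a1 was nearest to Dcn (r = 0.979), Serpinf1 (0.977), Pcolce (0.970), LOC100909539 (0.969) and Ptprd (0.961). Pcolce is an enhancer of procollagen trimming. Col3a1 was nearest to Col6a2 and Postn (both 0.939), Col6a1 and Col6a3 (both 0.931) and Tnc (0.917), of which 3 encode type VI collagen. Col11a2 was nearest to Cpz (0.944), Col22a1 (0.931), Ptgis (0.922), Entpd3 and Robo2 (both 0.918). Col12a1 was nearest to Thbs2 (0.955), Ppic (0.954), Fkbp9 (0.946), Srpx2 (0.944) and Maged1 (0.940).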
